A study of Mus musculus with 12 samples.

Results

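The circRNA of Igf2 (mmu_circRNA_002246, array probe ASCRP4006308) and the circRNA at the start of Rian (mmu_circRNA_000113, array probe ASCRP4002486) are 2 of the 14236 circRNA probes on the array, and both were among the 10678 probes bright enough to be tested on all 12 arrays. They were picked because they come from imprinted loci, because each circle spans under 100 bp, and because of what these arrays had shown: the supplementary list of the study holds the Igf2 circle as changed at 3 h and 24 h and the Rian circle as changed at 24 h. Their differences from sham at those times are therefore given as a description, with no test.

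Each array measured RNA from whole blood (male Balb/c mice) that had been treated with RNase R, an enzyme that digests linear RNA and spares circles. The groups were sham-operated mice, which underwent the surgery with the artery occluded for 0 min, and mice with middle cerebral artery occlusion (MCAO), a filament model of ischemic stroke, that lasted 5 min, 3 h or 24 h. There were 3 arrays in each of the 4 groups. The labels record all mice as 8 weeks old (the methods give another age). The study calls the replicates biological, while the labels do not tie them to single mice, and p-values measure the spread between these samples. Surgery was done under isoflurane anesthesia, and no transgene or other drug treatment is described for any group.

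Each array belonged to either of 2 slides, read from a shared scan time. On slide 1 were all sham and 5-min arrays with the first 2 replicates of 3 h. On slide 2 were the last replicate of 3 h and the 24-h group, so slide and the difference between 24 h and sham cannot be told apart except through that single 3-h array. The median raw intensity of negative-control spots was 25 to 27 on slide 1 and 83.5 to 101 on slide 2, and between 70.9% and 90.2% of circRNA spots per array were well above background. None of the erythroid, leukocyte or platelet genes used as blood markers is the host of a named circRNA, so the labeled tissue could not be checked against its markers. In whole blood, fewer cells that hold a circle and less of the circle per cell cannot be told apart.

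Imprinted genes are transcribed mainly from the chromosome of a single parent, and they tend to lie in clusters under shared control regions. Igf2, next to the maternally expressed noncoding RNA H19, encodes a fetal growth factor and is expressed from the paternal copy. Rian is a long noncoding RNA of the Dlk1-Dio3 cluster that hosts small nucleolar RNAs. Together with Meg3 and Mirg it is transcribed from the maternal copy, while Dlk1 and Rtl1, a retrotransposon-derived gene with a role in the placenta, are read from the paternal copy. A circRNA is a transcript closed by back-splicing, which joins the end of an exon or other segment to a start upstream of it.

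The Igf2 circle lies at chr7:142651461-142651527 (mm10) on the minus strand, spans 67 bp and is listed as sense overlapping. RefSeq (GRCm38.p6) places it inside the protein-coding gene Igf2 (chr7:142650768-142666816, minus strand), 693 bases from the 3′ end of that 16049-base gene. Exon boundaries were not used here, and the bases of this circle are not printed.

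The Rian circle lies at chr12:109603918-109603990 on the minus strand, spans 73 bp and is listed as antisense to Rian. Rian itself is read from the plus strand (chr12:109603945-109661716), so 46 bases of the circle lie opposite the first bases of the Rian transcript and 27 lie before the Rian start. The same stretch is inside the RefSeq gene Rtl1 (chr12:109564900-109604418), 428 bases from its upper bound. Rtl1 is known to be read from the opposite strand to Rian and its neighboring noncoding RNAs, so by its listed strand the circle is antisense to Rian and not to Rtl1. The sequence of the circle in RefSeq GRCm38.p6 is shown because its place across the start of Rian sets it apart from a circle of Rian exons. It is written 5′ to 3′ on the minus strand, with the 46 bases opposite Rian in capitals.
mmu_circRNA_000113: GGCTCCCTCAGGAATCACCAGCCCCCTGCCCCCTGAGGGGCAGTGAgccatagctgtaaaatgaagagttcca
The bases directly before and after this stretch on the minus strand are AG and GT, the letters that flank most spliced exons. Its GC content is 58.9%. The RefSeq window around the Rian start, chr12:109603695-109603994, is shown on the plus strand with the place of the circle in capitals, and it has a GC content of 49.3%.
Rian start window: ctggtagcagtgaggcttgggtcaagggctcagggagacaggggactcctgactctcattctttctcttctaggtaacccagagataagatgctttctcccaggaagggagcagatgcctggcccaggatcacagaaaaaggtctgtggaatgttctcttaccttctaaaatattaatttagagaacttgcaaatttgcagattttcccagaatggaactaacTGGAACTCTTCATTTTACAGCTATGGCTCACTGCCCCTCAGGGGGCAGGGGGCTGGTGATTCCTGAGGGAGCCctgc

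The Igf2 circle was brightest in sham and dimmest at 24 h. Its normalized log2 intensity in sham was 8.64, 10.04 and 10.36 on replicates 1, 2 and 3. At 5 min of MCAO it was 8.90, 8.78 and 8.68. These values lie inside the range of sham, whose replicate 1 was below all 3 arrays of 5 min. At 3 h the log2 intensity was 8.33, 6.59 and 4.98. At 24 h it was 4.73, 5.56 and 4.73. Every array of 3 h and of 24 h was below every sham array, while 3 h and 24 h overlapped, because replicate 3 of 3 h was as dim as the arrays of 24 h.

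The group means were 9.68 ± 0.91 in sham, 8.78 ± 0.11 at 5 min, 6.63 ± 1.67 at 3 h and 5.01 ± 0.48 at 24 h (log2 intensity, mean ± SD, n = 3). The sham and 3-h groups were wide. The SD of the Igf2 circle was larger than that of 94.6% of the tested probes in sham and of 98.7% at 3 h, against 15.7% at 5 min and 52.3% at 24 h. The median SD over all tested probes was 0.28 in sham and 0.31 at 3 h.

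The Rian circle moved in the opposite direction. Its normalized log2 intensity in sham was 7.72, 7.42 and 7.34. At 5 min it was 9.28, 7.42 and 8.21, a spread that reached from the level of sham to above every 3-h array. At 3 h the log2 intensity was 8.59, 8.97 and 8.80. At 24 h it was 9.16, 9.71 and 9.76. All arrays of 3 h and 24 h were above all sham arrays, all arrays of 24 h were above those of 3 h, and those of 5 min overlapped with each other group.

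The means of the Rian circle were 7.49 ± 0.20 in sham, 8.30 ± 0.93 at 5 min, 8.79 ± 0.19 at 3 h and 9.54 ± 0.34 at 24 h (log2 intensity, mean ± SD, n = 3). Here the wide group was 5 min, with an SD larger than that of 97.1% of the tested probes. In the other groups the SD was below that of most probes (35.8% of the probes had a smaller SD in sham, 26.0% at 3 h and 35.0% at 24 h).

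**Figure D1:**
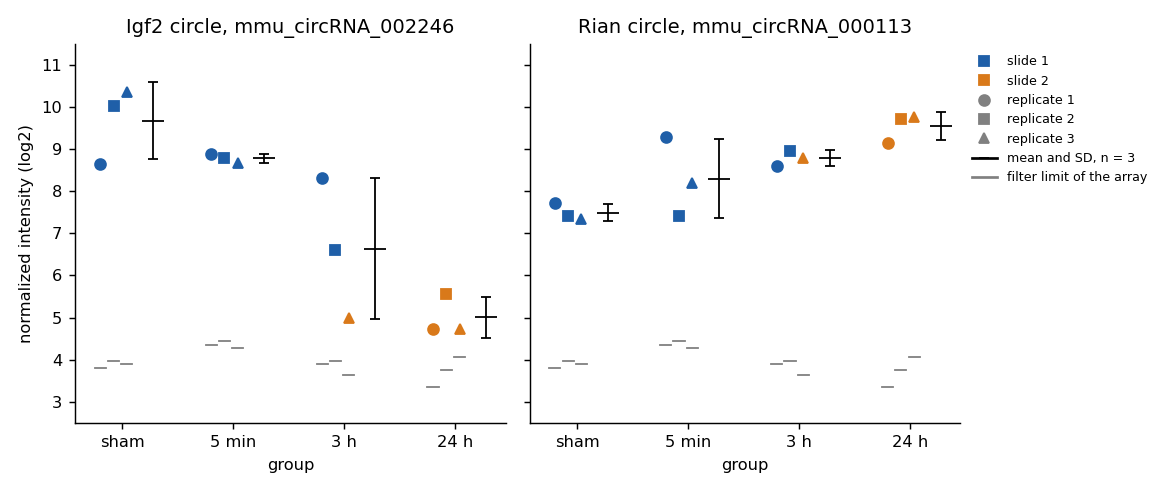
Normalized log2 intensity (vertical axis) of the Igf2 and Rian circles on each of the 12 arrays, by group (horizontal axis), with the mean and SD of 3 arrays beside them and the filter limit of each array as a grey line. The Igf2 circle goes from 8.64 to 10.36 in sham down to 4.73 to 5.56 at 24 h, where it nears the limit, and the Rian circle from 7.34 to 7.72 up to 9.16 to 9.76.

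The raw readings show how much of these patterns precedes normalization. The raw spot median of the Igf2 circle was 337, 1161 and 1803 in sham and 182.5, 280 and 221 at 5 min. It was 468, 119 and 129 at 3 h and 131.5, 139 and 126 at 24 h. Before normalization, then, all 5-min arrays were below all sham arrays. The first replicate of 3 h (468) was above the first of sham (337) and above every 5-min array, so 3 h lay apart from sham and from 5 min only after normalization. The arrays of 5 min were also the dimmest as a whole, with a median raw intensity of circRNA spots of 50 to 69 against 83 to 112.75 in sham, and normalization brought the 5-min values of the circle up into the range of sham.

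On slide 2 the Igf2 circle was close to the negative controls. At 24 h the 95th percentile of the negative controls was 96.6, 111 and 112.4 on replicates 1, 2 and 3, and on replicate 3 of 3 h it was 92.9. On slide 1 it was 28 to 32. The scanner software called the spot well above background on all 12 arrays. After normalization the circle was 1.39, 1.81 and 0.67 log2 units above the filter limit at 24 h and 1.34 above it on replicate 3 of 3 h, compared with 4.83 to 6.47 in sham. That limit lay a factor of 1.1 above the percentile just given, taken after normalization. With the median of the negative controls subtracted, the raw spot was 42.5, 38 and 28 at 24 h and 312, 1136 and 1778 in sham.

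The raw spot median of the Rian circle was 191, 206 and 226 in sham and 226, 123 and 167.5 at 5 min. It was 563, 579 and 718 at 3 h and 961, 855 and 905.5 at 24 h. The rise at 3 h and 24 h was therefore present before normalization and far above the negative controls, whereas the higher mean at 5 min was not: its raw mean was 172 ± 51.7 against 208 ± 17.6 in sham (mean ± SD, n = 3). On the scale of the Agilent processed signal, which is corrected for background on each array, the Rian circle had means of 182 in sham, 144 at 5 min, 564 at 3 h and 800.3 at 24 h. The same signal of the Igf2 circle was 1078 in sham, 198 at 5 min, 190 at 3 h and 32.9 at 24 h. No spot of either circle was saturated or marked as an outlier.

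**Figure D2:**
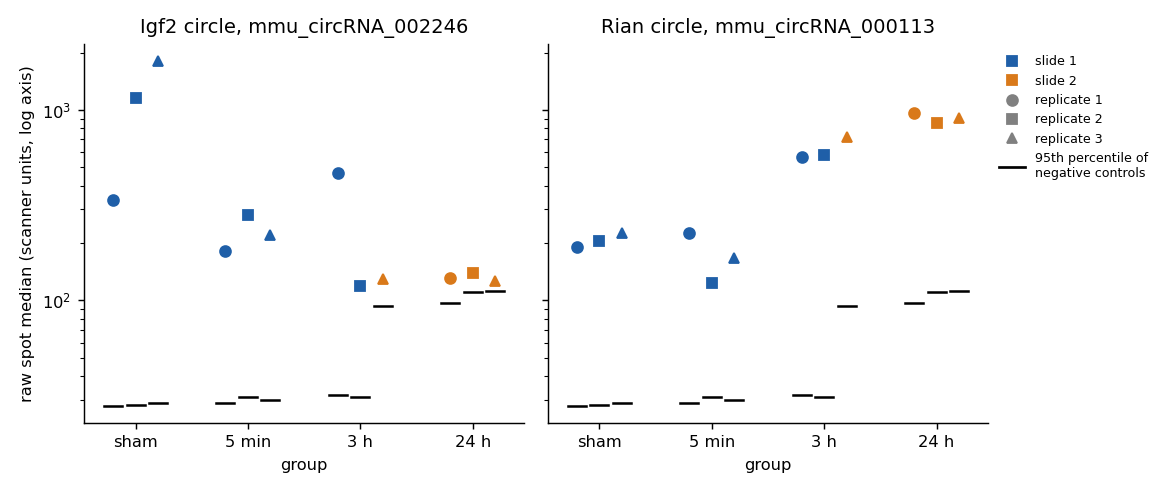
Raw spot median in scanner units on a log axis (vertical axis) for the 12 arrays by group (horizontal axis), with the 95th percentile of the negative controls of each array as a black line. On the arrays of slide 2 the Igf2 circle (126 to 139) is just above negative controls of 92.9 to 112.4, and the Rian circle (718 to 961) is far above them.

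At 5 min the Igf2 circle differed from sham by -0.89 log2 units (SE 0.67, 95% interval -2.34 to 0.55), which did not pass the test (limma with Benjamini-Hochberg adjustment over all tested probes, adjusted p = 0.406). It was -1.41 without sham replicate 1 and -0.55 without sham replicate 3. The Rian circle differed by 0.81 (SE 0.40, 95% interval -0.07 to 1.68) and did not pass either (limma, Benjamini-Hochberg adjusted p = 0.219). Single arrays moved that value, to 0.32 without replicate 1 of 5 min and to 1.25 without replicate 2. At that time 5.26% of the 10678 tested probes passed, 1.71% as higher and 3.55% as lower. These comparisons share their sham arrays with those by which the circles had been picked.

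At 3 h the Rian circle was higher than sham by 1.29 log2 units, or 2.45-fold (SE 0.40, 95% interval 0.42 to 2.17). All 3 arrays were above all sham arrays, as was the case for 13.7% of the tested probes, and the unadjusted p was 0.00701. The difference did not pass the test after adjustment (limma, Benjamini-Hochberg adjusted p = 0.101), which 4.24% of the probes did (3.43% higher and 0.815% lower), and the sham arrays are again those of the comparison by which the circle had been picked. Where only sham and 3 h were fitted, the adjusted p in limma was 0.0289, and without replicate 1 of 5 min, the array with the highest Rian value of its group, it was 0.0290. On the 8 arrays of slide 1 alone, a comparison added after the data had been seen, the difference was 1.29 (SE 0.47, limma, Benjamini-Hochberg adjusted p = 0.126).

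At 3 h the Igf2 circle was 8.24-fold lower than sham (log2 difference -3.04, SE 0.67, 95% interval -4.49 to -1.60). This was the lowest of the 10678 differences at that time, which is part of why the circle had been picked. Its arrays were below all sham arrays, as were those of 17.2% of the tested probes. Within slide 1, replicates 1 and 2 of 3 h differed from sham by -2.22, and the array on slide 2 was below the mean of those 2 replicates (log2 difference -2.48). Only 1.88% of the tested probes had a larger difference between the 3-h array of slide 2 and the others in either direction. The median absolute difference of that kind over the tested probes was 0.46. For the Rian circle the 3-h array of slide 2 was 0.02 above the others, and 97.6% of the probes differed more.

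At 24 h the Igf2 circle differed from sham by -4.67 log2 units (SE 0.67, 95% interval -6.11 to -3.23), or 25.5-fold, the 6th lowest difference of the 10678. The Rian circle differed by 2.05 (SE 0.40, 95% interval 1.18 to 2.92), or 4.14-fold, the 482nd highest. Both were among the 31.8% of probes that passed the adjusted threshold of 0.05 at that time (17.7% lower and 14.1% higher), a reading by which they had been picked. Arrays of 24 h and sham did not overlap for either circle, as for 24.9% of all tested probes in the lower and 19.5% in the higher direction. The median difference of all tested probes was -0.18.

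The size of the Igf2 difference at 24 h depended on slide and background. With slide as a fixed term it was -2.19 (SE 0.91), without background subtraction -3.54, and with a constant of 50 added after background correction (normexp with offset 50) -3.40. Taking each array's negative-control median as background, an alternative added after the data had been seen, gave -4.70. On slide 2 the 3 arrays of 24 h differed from the 3-h array there by 0.02. The Rian circle gave 2.03 (SE 0.75) with slide as a fixed term and 1.84 without background subtraction, and within slide 2 the arrays of 24 h were 0.74 above the 3-h array. The part of the slide in the 24-h values of the Igf2 circle was not tested beyond these readings. Neighbors were taken as the circRNA spots printed within 2 rows and 2 columns, tested or not. The 20 neighbors of the Igf2 spot had a median difference of -0.33 at 24 h (range -1.56 to 2.55), and the 23 neighbors of the Rian spot one of -0.10.

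**Figure D3:**
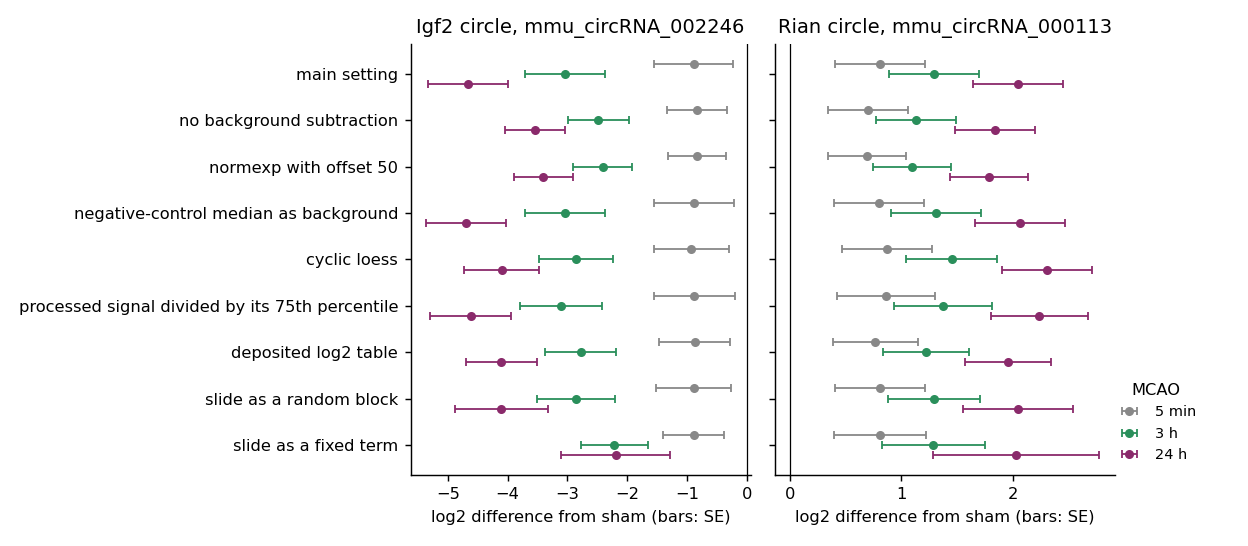
Log2 difference from sham with its SE (horizontal axis, scaled separately in each panel) for the Igf2 and Rian circles in each MCAO group, under 9 settings of background, scaling and slide (vertical axis). All values keep their side of 0, and the Igf2 difference at 24 h goes from -4.67 to -2.19 when slide is a fixed term. Slide terms cannot change the 5-min differences.

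Between the MCAO times the group means followed the order of duration for both circles. For the Igf2 circle, 3 h was below 5 min (log2 difference -2.15, SE 0.67), with no overlap between the arrays, as for 20.9% of the tested probes. Its 24-h mean was below that of 3 h (log2 difference -1.63, SE 0.67), and those arrays overlapped. The brighter 3-h arrays were those of slide 1. On slide 2 the 24-h arrays differed from the single 3-h array by 0.02, so the Igf2 step from 3 h to 24 h was not seen within a slide. For the Rian circle, 3 h was 0.48 above 5 min (SE 0.40) with overlapping arrays, and 24 h was 0.76 above 3 h (SE 0.40) with no overlap, as for 10.6% of the probes. Between 5 min and 24 h the differences were -3.78 and 1.24. The neighbors that overlapped were thus sham and 5 min for both circles, 3 h and 24 h for Igf2, and 5 min and 3 h for Rian.

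Over the 12 arrays the log2 intensities of the Igf2 and Rian circles had a Pearson r of -0.80 (Spearman rho -0.73), and over the 8 arrays of slide 1 an r of -0.66. These are descriptions, as the arrays share groups, slides and a common normalization. The circles had also been picked with their opposite changes at 24 h known, which by itself favors a negative r. Of the 10666 other tested probes with a value on every array, 67 had an r of at least 0.9 with the Igf2 circle and 55 of at most -0.9. The same counts for the Rian circle were 166 and 33.

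The probe with the pattern most like the Igf2 circle was ASCRP4001779 (r = 0.95), followed by mmu_circRNA_33661 (r = 0.94), an exonic circle at Psmd14, which encodes a deubiquitinase of the proteasome lid. It differed from sham by -1.42 log2 units at 3 h and -2.06 at 24 h. The next were ASCRP4010993, ASCRP4008988 and mmu_circRNA_24167 (r = 0.94 each), the last of which differed by -3.23 at 24 h. The probes with the lowest r were ASCRP4002491 (-0.96), ASCRP4004469 and ASCRP4001245 (-0.95 each). The fall of the Igf2 circle at 24 h was larger than that of any of the 5 probes most like it (-3.23 to -1.50). That fall is part of why the Igf2 circle had been picked, whereas the 5 probes were chosen by r alone, so this gap is no result.

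The Rian circle was most like ASCRP4009849 (r = 0.98) and ASCRP4009063 (r = 0.96). The next 3 had names: a circle of the copper transporter gene Atp7a (mmu_circRNA_45692), an intronic circle of Map7, which encodes a microtubule-binding protein (mmu_circRNA_21730), and a circle of the class I histocompatibility gene H2-K1 (mmu_circRNA_19186), each with an r of 0.96. Their differences from sham at 24 h were 3.96, 4.23 and 2.12 log2 units. The lowest r was that of ASCRP4005695, ASCRP4011722 and ASCRP4003662 (-0.95 each). Over slide 1 alone the 5 most alike of the Rian circle had an r of 0.94 to 0.98, and those of the Igf2 circle one of 0.72 to 0.86.

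Among 94 genes known to be imprinted or to lie in imprinted clusters, 6 further circRNAs had a name. Names come from the supplementary list, which holds circRNAs that the study called changed, so the share of these that passed says nothing about imprinted genes. The list also required a minimum fold change, so the listing sets a lower bound on the sizes of differences at listed times. At 24 h 5 were higher and 1 lower than sham (limma, adjusted p of at most 0.05), where 54.1% of the 901 named circRNAs were higher and 39.1% lower, with a median difference of 3.20 log2 units against 2.07 over all named circRNAs and -0.18 over all tested probes. At 3 h 3 were higher and none lower (median 1.78), against 284 higher and 41 lower of the 901 named circRNAs (median 0.81). At 5 min none passed (median 0.58), against 27 higher and 131 lower of the named circRNAs (median 0.41). No circle was listed under H19, Meg3, Rtl1 or Dlk1, although the Rian circle lies inside Rtl1.

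Mirg, the third maternally expressed noncoding RNA of the Rian cluster, had a circle on the list (mmu_circRNA_25839, chr12:109729767-109730488, plus strand), which in RefSeq lies between Rian and Mirg. Its log2 intensity was 6.17, 5.91 and 5.86 in sham and 6.67, 6.01 and 6.21 at 5 min. It was 7.29, 7.85 and 6.77 at 3 h and 10.49, 9.16 and 8.69 at 24 h. Like the Rian circle, which is listed on the minus strand, it was above all sham arrays at 3 h and 24 h. So were 13.7% and 19.5% of the tested probes. The differences of the Mirg circle from sham at those times were 1.32 and 3.46 (SE 0.43). Slide as a fixed term gave 4.26 at 24 h. The replicate on slide 2 was the dimmest of the 3-h group.

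A circle of the Kcnq1 region (mmu_circRNA_42485, chr7:143258342-143259384, minus strand) was the only one of the list besides the Igf2 circle that fell. It is listed under Kcnq1, a potassium channel gene, and Kcnq1ot1, the noncoding RNA that silences neighbors in the cluster next to Igf2. Its log2 intensity was 7.23, 6.78 and 6.68 in sham and 5.02, 6.23 and 5.90 at 5 min. It was 6.01, 5.65 and 4.94 at 3 h and 4.37, 4.86 and 5.28 at 24 h. All arrays of 3 h and of 24 h were below all sham arrays, as were those of 17.2% and 24.9% of the tested probes. Unlike for the Igf2 circle, the highest 5-min array (6.23) was also below the lowest sham array (6.68). The filter limits of the 24-h arrays were 3.34, 3.75 and 4.06, so the circle of the Kcnq1 region was near the limit there. Its spot was not well above background on every array. The difference at 24 h was -2.06 (SE 0.37), and -1.17 with slide as a fixed term.

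The other 4 were higher at 24 h. The 2 circles of Snhg14, the noncoding RNA that hosts the small nucleolar RNAs of the Prader-Willi region, lie on chromosome 7, as do the Igf2 and Kcnq1 circles. Of these 2, mmu_circRNA_41481 rose by 3.23 log2 units (SE 0.37). The other, mmu_circRNA_002520, differed by 4.99 (SE 1.61), with 24-h arrays at 14.55, 9.12 and 8.53 and an SD of 3.32. It was at 13.79 on the 3-h array of slide 2 and at 7.16 and 7.63 on the other 3-h arrays, and slide as a fixed term turned its difference at 24 h to -1.41. The circle of Cobl, an actin nucleator gene, rose by 3.17 (SE 0.34), and that of H13, a signal peptide peptidase gene, by 2.29 (SE 0.42). Aside from mmu_circRNA_002520, each of the 6 kept its direction at 24 h under every background, scaling and slide setting in which it was measured.

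**Figure D4:**
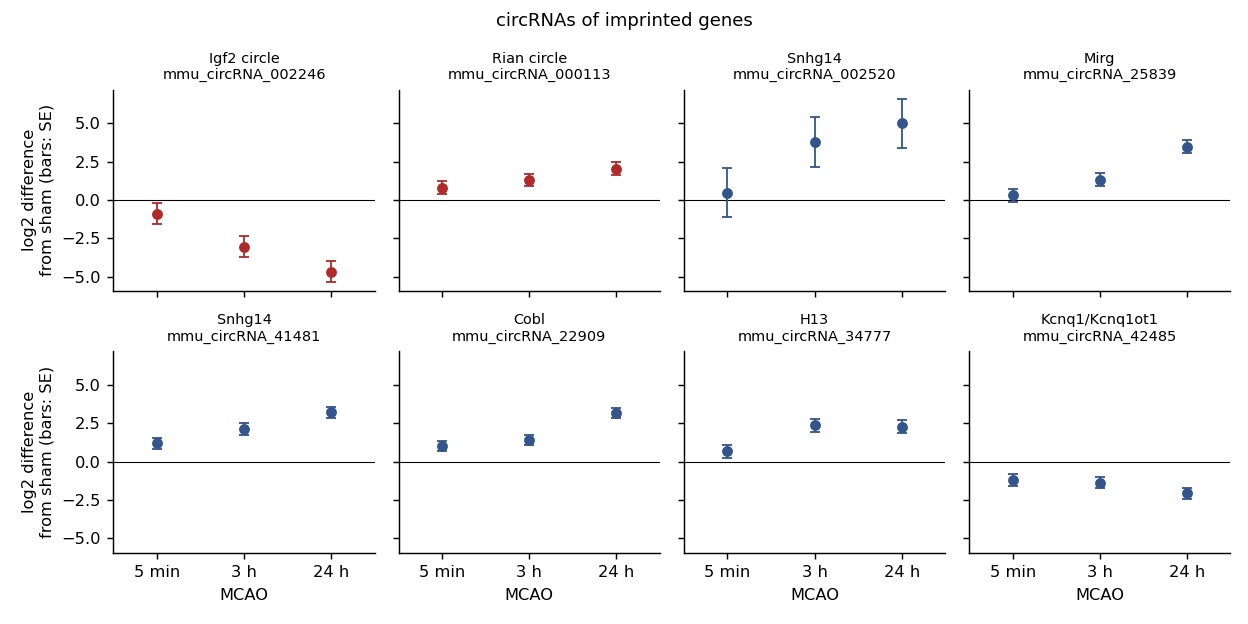
Log2 difference from sham with its SE (vertical axis) by duration of MCAO (horizontal axis) for the Igf2 and Rian circles (red) and the 6 other named circRNAs of imprinted genes (blue). Those of Igf2 (-4.67 at 24 h) and Kcnq1/Kcnq1ot1 (-2.06) are lower than sham, and the other 6 are higher, from 2.05 for Rian to 4.99 for the Snhg14 circle with the wide bars.

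Both circles are also short. The median span of the 901 named circRNAs was 10150 bp, and 13 others besides these 2 spanned under 100 bp. The longest of them spanned 96 bp, and the next named circRNA, at Azin1, spanned 100 bp and differed from sham by -2.05 at 24 h. At 24 h 9 of the 13 were higher and 4 lower than sham (limma, adjusted p of at most 0.05), with a median of 2.39 log2 units. Over all 901 named circRNAs 487 were higher and 352 lower at that time (54.1% and 39.1%), and over all tested probes 14.1% and 17.7%. At 3 h 3 of the 13 were higher and none lower, against 31.5% and 4.55% of the named circRNAs. At 5 min 1 was higher, against 3.00% of the named circRNAs. As all were on the list of changed circRNAs, which required a minimum fold change, these counts and sizes are a description.

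By listed type, all 4 other short antisense circles were higher at 24 h, as the Rian circle was, by 2.10 to 4.21 log2 units. Of the named circRNAs of any length, 20 of 20 antisense, 37 of 60 intronic and 72 of 139 sense-overlapping ones were higher at that time, with the Igf2 and Rian circles counted in. A difference between types was not tested, and the listing sets a lower bound on the size of each difference at 24 h. The 4 other short antisense circles are named for Trim21, Tubb5, Auts2 and BC055324. Trim21 is an antibody receptor and ubiquitin ligase of the cytosol, and Tubb5 is a tubulin gene. All 3 intronic ones, at Rps13/Snord14a, Calu and Ep400, were higher by 2.20 to 2.98. Of the 6 sense-overlapping circles 4 were lower, as the Igf2 circle was: 2 of the histone gene Hist1h1c (-2.20 and -2.36) and those of the ribosomal protein genes Rpl8 (-2.74) and Rpl4 (-3.40). The 2 Hist1h1c circles overlap each other for most of their length and may share signal. The circle of Ubxn1 (3.18) and mmu_circRNA_011696 (2.40) were higher. All 13 kept their direction at 24 h under the background, scaling and slide settings in which they were measured. Filters cannot change a difference. The spots of the Rpl8 and BC055324 circles were not well above background on every array. At 3 h the 4 lower ones had differences of -0.95 to -0.41. None of the 13 is on the 3-h list, while the Igf2 circle (-3.04) is, so the gap between them at 3 h follows from the listing and is no result.

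**Figure D5:**
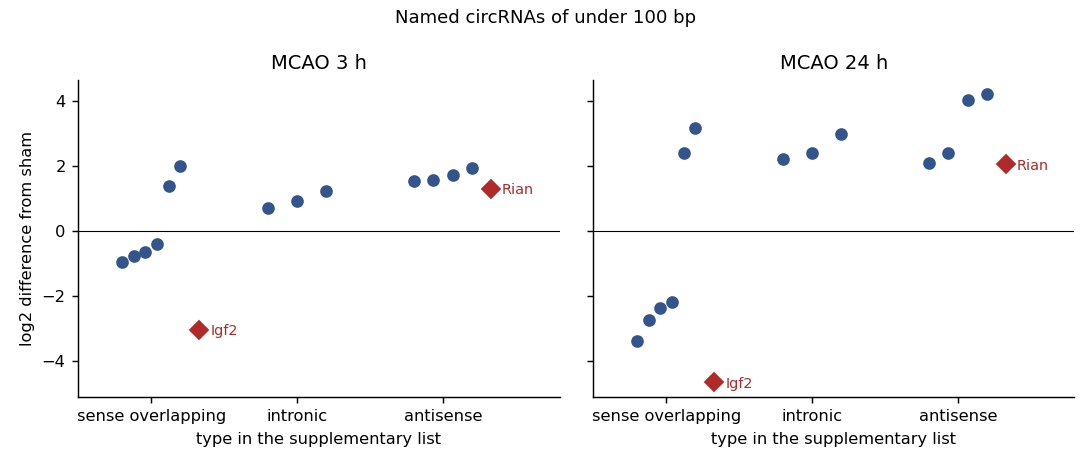
Log2 difference from sham (vertical axis) at 3 h and 24 h of the named circRNAs under 100 bp, by listed type (horizontal axis), with the Igf2 and Rian circles as red diamonds and the 13 others as blue points. At 24 h Igf2 is at -4.67 and the 4 other lower ones at -3.40 to -2.20. At 3 h Igf2 is at -3.04, and the 13 others were not listed for that time.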

How the data were processed

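Whole-blood circRNA was measured on 12 one-colour (Cy3) Agilent arrays (Arraystar Mouse circRNA Array v2), 3 per group by the sample labels. For each array the authors deposited scanner output from Agilent Feature Extraction 11.0.1.1, with spot and local background intensity on a linear scale. They also deposited a series-wide table of quantile-normalized log2 values, used as an alternative. Here spot medians were corrected by normexp with an offset of 0, and the 15712 spots were quantile normalized and log2 transformed (limma 3.58.1, R 4.3.3). Outlier spots were set to missing. A probe was tested if, on each of the 12 arrays, it reached the 95th percentile of the 77 negative controls times 1.1. The 4 groups were fitted in limma (lmFit, eBayes with trend, 8 residual degrees of freedom), with Benjamini-Hochberg adjustment within a comparison and calls at 0.05. The number of arrays limits the precision. An SE is limma's moderated one.

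The array files hold probe numbers only. Of 903 circRNAs in the supplementary list, 901 were matched to a probe by mean and log2 difference (equal within 5e-04), which makes equality with that list a condition of the naming. Gene symbols, types and mm10 places come from that list, or the gene from RefSeq where the listed symbol was unknown. Its starts were read as counted from 0, since both exonic plus-strand starts that fall in a RefSeq window had AG directly before them on that reading and neither did when counted from 1. Slides were read from the shared scan time in the file headers. The circles, gene lists and tests were chosen with earlier results of these data known. Named were the 2 circles, the 5 probes with the highest and the 3 with the lowest r to each over 12 arrays, named circRNAs of Igf2, H19, Rian, Meg3, Rtl1, Mirg and Dlk1, and up to 12 others from the imprinted list. The Azin1 circle and the short circRNAs were named after their values had been seen. Of 6 brain marker genes, Rims2 is host to a named circRNA. The procedure was tested on simulated data. Alternatives were other background corrections, scalings, filters, models, slide terms, a replicate block and leaving out each array.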

Additional observations from a re-analysis of the deposited data

How the results depend on the processing

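The differences of both circles from sham kept their direction at all 3 times under each setting run. These were other background corrections, cyclic loess, the deposited table, scaling of the processed signal by its 75th percentile, other filters, no variance trend, slide terms, the replicate block, only the 2 groups compared and each array left out. Of these, the filters, the variance trend, the replicate block and fitting only 2 groups cannot change a log2 difference. The same holds at 5 min for slide terms, and for leaving out an array of a group not compared. Only the other settings could have changed the direction. The Igf2 difference at 24 h moved by more than the spread between replicates without background subtraction (-3.54), with normexp offset 50 (-3.40) and with slide as a fixed term (-2.19), which rests on the single 3-h array of slide 2. The Rian difference at 3 h passed in limma when only the 2 groups compared were fitted (1.29, adjusted p = 0.0289) and without replicate 1 of 5 min (1.29, adjusted p = 0.0290), and its adjusted p was 0.0289 to 0.164 over the other settings and 0.0290 to 0.313 with an array left out. With arrays left out in turn, the Igf2 circle gave -1.41 to -0.55 at 5 min, -3.89 to -2.22 at 3 h and -5.19 to -4.33 at 24 h. The Rian circle gave 0.32 to 1.25, 1.20 to 1.41 and 1.94 to 2.24. The Igf2 value of -2.22 at 3 h was the one without replicate 3 of 3 h.

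Same-numbered arrays of different groups had deviations with correlations of -0.52 to 0.46 (median 0.01). For differently numbered arrays the correlations were -0.54 to 0.55 (median -0.01). These values give no sign that the numbers pair the samples, and pairing was not tested. The replicate block left each difference as it was (limma adjusted p = 0.410 for Igf2 and 0.229 for Rian at 5 min, and 0.115 for Rian at 3 h).

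The counts of all probes that passed (562 at 5 min, 453 at 3 h and 3398 at 24 h) were 654, 598 and 764 with slide as a fixed term. Slide as a random block gave 1996 at 24 h, cyclic loess 873 and division by the 75th percentile 937 at 5 min, and slide 1 alone 2036 and 951 at the first 2 times. Leaving out arrays gave 1 to 1419, 99 to 741 and 2170 to 3753. At 5 min 1 passed without sham replicate 2 and 1 without replicate 3 of 5 min, and at 24 h 2170 without sham replicate 2. Division by the 75th percentile moved the median difference of all probes at 24 h from -0.18 to 0.03, and the circles then differed by -4.62 and 2.24. The level of the Igf2 circle at 24 h is limited by its nearness to the negative controls.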
